A study of Homo sapiens with 24 samples.

Results

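PTGS2 and 6 further genes of prostaglandin production, sensing and removal (PTGS1, PTGES, PTGER2, PTGER4, HPGD and PLA2G4A) were described in MCF10A cells over the first 120 min of EGF. A gene was taken through the probe sets that carry its symbol and no other in the probe-to-gene table, the brightest one where there were several. Each of the 7 had exactly 1 such probe set, so all 7 were measured, among 18417 genes in all (19460 probe sets with 1 symbol). The probe sets are 7922976 (PTGS2), 8157650 (PTGS1), 8164580 (PTGES), 7974366 (PTGER2), 8105067 (PTGER4), 8103769 (HPGD) and 7908351 (PLA2G4A).

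MCF10A is a non-tumorigenic human mammary epithelial cell line. Cells received siRNA oligonucleotides directed at the microRNA miR-20a (si-miR-20a), at miR-671-5p (si-miR-671) or a non-targeting control oligonucleotide (control), by Oligofectamine. Each transfection was sampled at 0, 30, 60 and 120 min of EGF, with 2 arrays labelled as biological replicates in each of the 12 groups. All groups came from 1 cell line kept in medium with insulin, cholera toxin, hydrocortisone, horse serum and EGF. Cholera toxin raises cellular cAMP and hydrocortisone is a glucocorticoid, both known to act on PTGS2. Whether these were withdrawn before the time course, and the level of either microRNA after transfection, are not given in the sources used here, so the knockdown itself was not checked. The labels do not say how these biological replicates were made, or that they were separate cultures. The p-values therefore measure the spread between these arrays, and how much of it is biological is not known.

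Prostaglandins are local lipid signals. Cytosolic phospholipase A2 (PLA2G4A) frees arachidonic acid from membranes, the cyclooxygenases PTGS1 and PTGS2 turn it into the intermediate PGH2, and prostaglandin E synthase (PTGES) makes PGE2. PGE2 acts through G protein-coupled receptors, among which EP2 (PTGER2) and EP4 (PTGER4) raise cAMP, and 15-hydroxyprostaglandin dehydrogenase (HPGD) inactivates it. PTGS2 is known as the inducible cyclooxygenase and as an early response gene in epithelial cells, whereas PTGS1 is usually described as constitutive.

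The 2 microRNAs at which the oligonucleotides were directed are shown because they define the transfections. Their mature RefSeq sequences (GRCh38.p14) are given 5′ to 3′, with the seed, bases 2 to 8, in capitals. The letters of the siRNA oligonucleotides are not given in the sources used here.
hsa-miR-20a-5p: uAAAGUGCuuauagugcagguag
hsa-miR-671-5p: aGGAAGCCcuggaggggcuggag
The first lies in the gene MIR20A at chr13:91351072-91351094 on the plus strand, and the second in MIR671 at chr7:151238449-151238471 on the plus strand. Their seeds differ, so the 2 transfections do not address 1 seed family.

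The promoters of PTGS2 and PTGER4 are shown because these 2 members moved together with EGF. Each covers 250 bases before to 50 bases after the RefSeq gene start (GRCh38.p14), 5′ to 3′ on the gene's strand. Capitals mark every match, on either strand, to 8 short patterns: the cAMP response element core TGACG, the AP-1 site TGANTCA, the E-box CACGTG, the C/EBP pattern TTNCGNAA, the NF-kappaB pattern GGGANTNNC, the TATA box TATAAA, the CCAAT box, spelled CCAAT, and the GC box GGGCGG.
PTGS2 promoter, chr1:186680374-186680673, minus strand: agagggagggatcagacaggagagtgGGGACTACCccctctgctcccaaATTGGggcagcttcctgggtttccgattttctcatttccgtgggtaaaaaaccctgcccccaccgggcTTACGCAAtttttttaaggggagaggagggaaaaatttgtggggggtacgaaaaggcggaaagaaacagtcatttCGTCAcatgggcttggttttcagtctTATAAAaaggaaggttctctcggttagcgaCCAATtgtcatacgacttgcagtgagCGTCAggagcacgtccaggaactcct
PTGER4 promoter, chr5:40679665-40679964, plus strand: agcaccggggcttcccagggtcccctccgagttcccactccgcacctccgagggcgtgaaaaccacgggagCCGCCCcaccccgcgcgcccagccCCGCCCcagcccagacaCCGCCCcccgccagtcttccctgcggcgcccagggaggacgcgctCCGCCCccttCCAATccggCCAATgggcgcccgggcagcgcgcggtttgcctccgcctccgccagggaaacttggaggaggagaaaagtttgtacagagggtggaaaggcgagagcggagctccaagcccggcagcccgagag
The PTGS2 window held the NF-kappaB pattern at -224 to -216, the C/EBP pattern at -133 to -126, the cAMP response element core at -58 to -54 and again at 25 to 29, and TATAAA at -32 to -27, counted from the gene start. It also held CCAAT on the minus strand at -201 to -197 and on the plus strand at -2 to 3, and no match overlapped another. Of 35116 promoters of this length, 15.4% held the NF-kappaB pattern, 2.57% the C/EBP pattern, 24.6% the cAMP response element core, 11.5% TATAAA and 34.6% CCAAT. The PTGER4 window held no NF-kappaB, C/EBP or cAMP response element pattern and no TATAAA. It held CCAAT at -83 to -79 and at -74 to -70 and 4 GC boxes between -179 and -88, a pattern found in 45% of all promoters. Its bases were 72% G or C, against 50.7% in the PTGS2 window. The AP-1 pattern TGANTCA and the E-box spelling CACGTG, found in 7.71% and 7.26% of promoters, were in neither window. Other spellings of an E-box were not searched. The patterns were chosen with the sequences in view, and a match describes letters, not binding.

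The levels below are log2 intensities as deposited, on which a difference of 1 is a doubling. Each probe set binds with its own strength, so levels were compared between arrays and not between genes. Array medians lay between 6.56 and 6.57. The epithelial markers KRT5, KRT14, CDH1 and EPCAM were all above the median probe set (6.55) on average, while 2 of 5 blood and endothelial markers (CD68 at 7.70 and CDH5 at 10.2) and 2 of 5 fibroblast markers (COL1A1 and DCN) were also above it. Of the luminal hormone receptor markers, ESR1 (6.62) and GATA3 (7.18) were above it and PGR (4.81) was below it. PTPRC at 4.28, CD3E at 5.91 and PECAM1 at 6.46, of the blood and endothelial list, were below it. So were COL1A2 at 6.09, PDGFRB at 5.88 and LUM at 3.66, of the fibroblast list. Against control, the late si-miR-671 arrays (60 and 120 min) differed more widely than the early ones. At 60 and 120 min 1592 and 1086 probe sets passed the test, compared with 105 and 89 at 0 and 30 min. The si-miR-20a arrays gave 646, 992, 1205 and 1958 against control at 0, 30, 60 and 120 min. Between si-miR-20a and si-miR-671, 103, 285, 18 and 419 passed at the same times. Averages that include the late si-miR-671 arrays are also given without them. Results for si-miR-671 cells at 60 or 120 min alone rest on these arrays. A difference was called at an adjusted p under 0.05, from limma fitted to all 24 arrays with Benjamini-Hochberg adjustment over the 19460 probe sets.

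PTGS2 was the member with the widest range, 5.29 to 9.87 over the 24 arrays. In si-miR-20a cells the 2 arrays read 5.57 and 5.29 at 0 min, 8.50 and 8.51 at 30 min, 9.63 and 9.71 at 60 min and 8.64 and 8.95 at 120 min. In si-miR-671 cells they read 5.84 and 6.16, then 9.07 and 8.96, then 9.85 and 9.75, and at 120 min 8.54 and 8.70. In control cells they read 6.33 and 6.41, then 8.75 and 8.79, then 9.87 and 9.86, and at 120 min 8.26 and 8.15. Every array at a later time was above every 0 min array, and in each transfection the arrays peaked at 60 min without overlapping those of the other times.

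PTGER4, the EP4 receptor, also had its highest group mean at 60 min in each transfection. In si-miR-20a cells the arrays read 6.08 and 5.98 at 0 min, 7.44 and 7.28 at 30 min, 8.34 and 8.0 at 60 min and 6.95 and 7.17 at 120 min. In si-miR-671 cells they read 5.90 and 5.88, then 7.96 and 7.91, then 8.08 and 8.07, and at 120 min 7.45 and 7.73. In control cells they read 5.96 and 6.05, then 7.54 and 7.35, then 8.06 and 8.15, and at 120 min 7.07 and 6.82. The 0 min arrays spanned only 5.88 to 6.08, and all later arrays were above them.

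**Figure D1:**
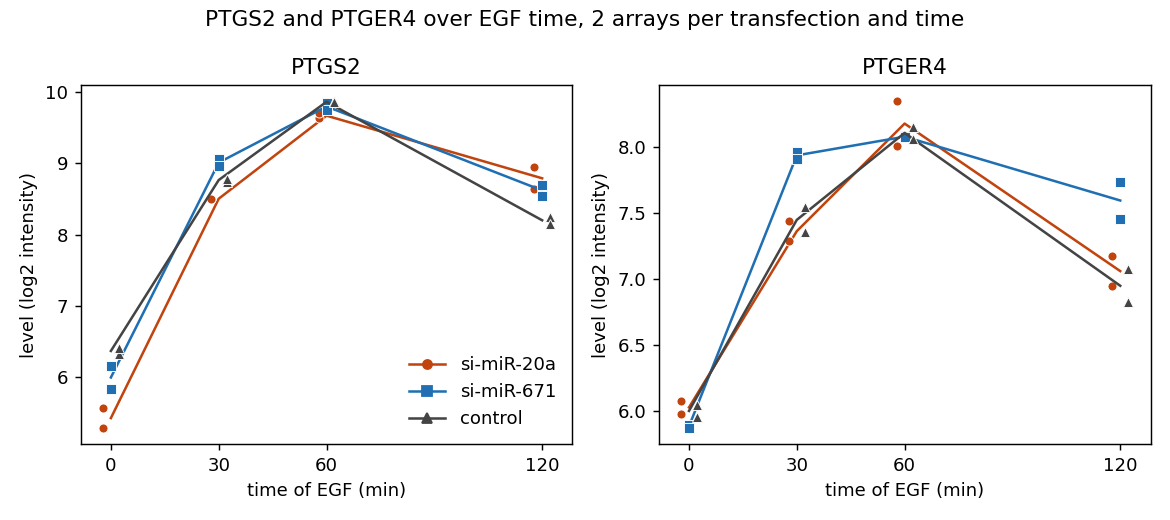
Levels of PTGS2 (left) and PTGER4 (right), in log2 intensity, against minutes of EGF. Points are single arrays (2 per transfection and time, shifted sideways for legibility), lines join the means of si-miR-20a, si-miR-671 and control. Both genes peak at 60 min, PTGS2 is lowest in si-miR-20a cells at 0 min and lowest in control cells at 120 min, and PTGER4 is highest in si-miR-671 cells at 30 and 120 min.

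Over the 3 transfections averaged, 2 of the 7 members rose at each EGF time, PTGS2 and PTGER4, and none fell. Over all probe sets, 0.766% were called at 30 min, 2.66% at 60 min and 13.4% at 120 min. PTGS2 averaged 8.76 at 30 min and 5.93 at 0 min, a rise of 2.83 ± 0.07 (SE, 6 arrays against 6), or 7.11-fold. At 120 min it averaged 8.54 and was still 6.09-fold above 0 min. PTGER4 rose by 1.61 ± 0.07 at 30 min (adjusted p = 2e-09), by 2.14 ± 0.07 at 60 min (adjusted p = 3.2e-11) and by 1.23 ± 0.07 at 120 min (adjusted p = 2.1e-08), which is 3.04-, 4.42- and 2.34-fold. Without the late si-miR-671 arrays the 60 and 120 min rises were 3.87 and 2.60 for PTGS2 and 2.12 and 0.99 for PTGER4, all called. For both genes each of the averaged differences held in 3 of 3 transfections, with an exact stratified permutation p of 0.0093, the smallest that 216 arrangements can give. In every single transfection both genes were called at every time. At 30, 60 and 120 min the share of all probe sets called was 0.391%, 0.971% and 7.64% in si-miR-20a cells, 0.581%, 2.06% and 5.95% in si-miR-671 cells, and 0.334%, 0.791% and 2.96% in control cells. With only the 4 arrays of 1 transfection at the 2 times in the fit, the PTGER4 call was lost in si-miR-20a cells at all 3 times (adjusted p = 0.3, 0.12 and 0.12), in si-miR-671 cells at 120 min (0.081) and in control cells at 30 and 120 min (0.18 and 0.13), and the PTGS2 call was lost in si-miR-671 cells at 120 min (0.08).

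In the averaged steps from one EGF time to the next these 2 genes were called and the other 5 were not. Of those 5, PTGS1 averaged 6.81 at 60 min and 7.06 at 120 min and was higher at 120 min in each transfection. With 1 array left out at a time its rise was 0.18 to 0.33. Between 60 and 30 min, PTGS2 rose by 1.02 ± 0.07 (adjusted p = 1.2e-06) and PTGER4 by 0.54 ± 0.07 (adjusted p = 0.0013), where 1% of all probe sets were called. Between 120 and 60 min, PTGS2 fell by 1.24 ± 0.07 (adjusted p = 3.3e-08) and PTGER4 by 0.92 ± 0.07 (adjusted p = 1.4e-06), where 4.92% were called. With the late si-miR-671 arrays left out the rises were 1.13 for PTGS2 and 0.73 for PTGER4, and PTGS2 fell by 1.27 and PTGER4 by 1.13, all called. For PTGER4 the 60 min arrays were higher than the 30 min arrays by 0.81 ± 0.13 in si-miR-20a cells (adjusted p = 0.0086), by 0.14 ± 0.13 in si-miR-671 cells (adjusted p = 0.63) and by 0.66 ± 0.13 in control cells (adjusted p = 0.11), and whether these steps differ was not tested. At 120 min PTGER4 fell by 1.11 in si-miR-20a cells (adjusted p = 0.00017) and by 1.15 in control cells (adjusted p = 0.00013), relative to 60 min, where 2.37% and 1.61% of probe sets were called. With only the 4 arrays compared both calls were lost (adjusted p = 0.18 and 0.14), as was the 60 min step in si-miR-20a cells (adjusted p = 0.69). In si-miR-671 cells the 120 min level lay 0.48 ± 0.13 under the 60 min level, which did not pass the test (adjusted p = 0.13). The difference between the si-miR-671 and control steps was not called: si-miR-671 minus control was 0.67 ± 0.18 with adjusted p = 0.53.

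The other 5 members were not called at any EGF time against 0 min. PTGES, the PGE2 synthase, was the steadiest, between 11.17 and 11.36 on all 24 arrays. Its averaged difference at 120 min was -0.07 ± 0.04, lower in 3 of 3 transfections (exact stratified permutation p = 0.019, one of 42 such tests on the members). The highest value of any probe set reached up to 13.2. The mean PTGES level was above that of 98.3% of probe sets, and whether its signal was compressed was not tested. PLA2G4A, the phospholipase that supplies arachidonic acid, ranged from 6.95 to 7.61, and its averaged differences from 0 min lay between -0.05 and 0.01. PTGS1, the other cyclooxygenase, ranged from 6.51 to 7.39 and had an averaged difference of -0.20 ± 0.08 at 60 min, lower in 3 of 3 transfections. PTGER2, the EP2 receptor, ranged from 4.21 to 5.35, with averaged differences between -0.03 and 0.18. HPGD, the inactivating enzyme, ranged from 5.52 to 6.68, with averaged differences of 0.13, 0.17 and 0.10 at 30, 60 and 120 min.

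**Figure D2:**
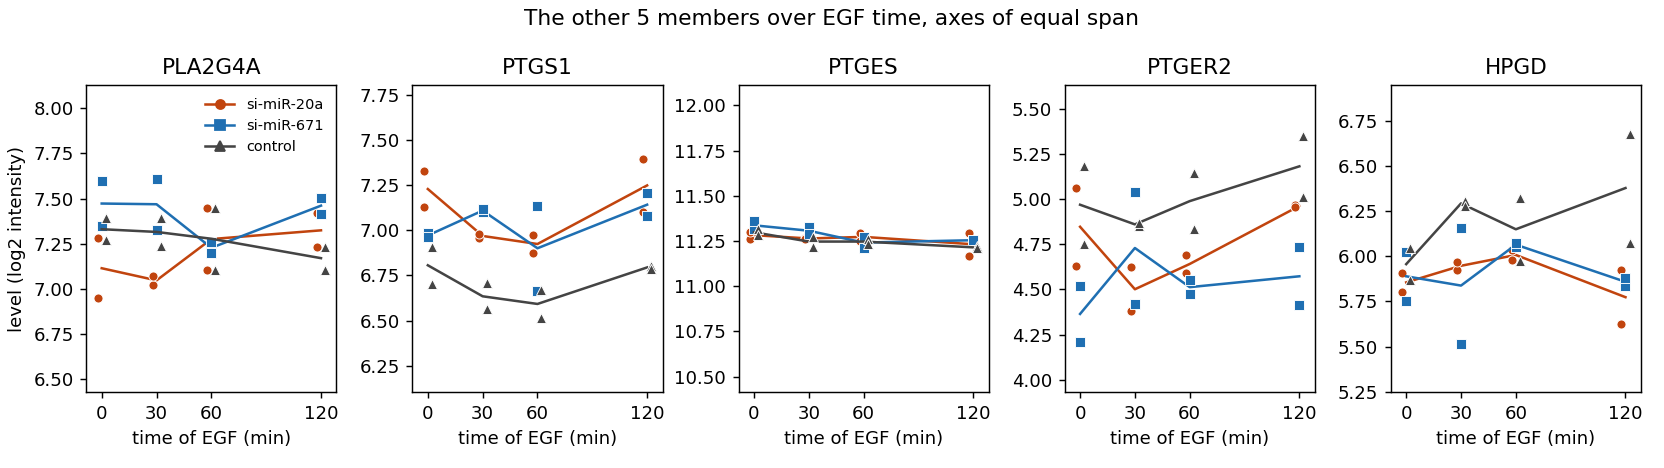
Levels of PLA2G4A, PTGS1, PTGES, PTGER2 and HPGD, in log2 intensity, against minutes of EGF, on axes of equal span. Points are single arrays, lines join the means of si-miR-20a, si-miR-671 and control. PTGES stays between 11.17 and 11.36, and the mean of control is lowest for PTGS1 and highest for PTGER2 at all 4 times.

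PTGS2 before EGF was lower in si-miR-20a cells than in control cells. At 0 min the arrays read 5.57 and 5.29 in si-miR-20a cells, against 6.33 and 6.41 in control cells, a difference of -0.94 ± 0.12 (adjusted p = 6e-04). At 30 and 60 min the differences were -0.26 and -0.19 and were not called (adjusted p = 0.28 and 0.44). At 120 min the order was the other way round, with 8.64 and 8.95 in si-miR-20a cells against 8.26 and 8.15 in control cells, a difference of 0.59 ± 0.12 (adjusted p = 0.0078). PTGS2 was 1 member called at 0 min and 1 at 120 min, where 3.32% and 10.1% of all probe sets were called. The groups did not overlap at either time, but with 2 arrays a group an exact permutation test cannot go below 0.33. The 120 min call was lost without the second si-miR-20a array (0.43, adjusted p = 0.12) or the second control array (0.54, adjusted p = 0.052) of that time. With only the 4 arrays of each time in the fit, neither was called (adjusted p = 0.34 at 0 min and 0.24 at 120 min).

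These opposite differences make the EGF response of PTGS2 larger in si-miR-20a cells than in control cells. The si-miR-671 arrays lay on the same sides of control. At 0 min they read 5.84 and 6.16, below the control arrays (6.33 and 6.41). At 120 min they read 8.54 and 8.70, above the control arrays (8.26 and 8.15), a difference of 0.42. Neither was called in the main fit. The 120 min difference was called with a mean of at least 6 over 24 arrays, and with another variance model (adjusted p = 0.038 in both). PTGS2 rose 8.44-, 18.9- and 10.3-fold at 30, 60 and 120 min in si-miR-20a cells, 8.08-, 13.9- and 6.16-fold in si-miR-671 cells, and 5.27-, 11.3- and 3.56-fold in control cells. The response in si-miR-20a cells exceeded that in control cells by 0.68, 0.75 and 1.53 (SE 0.17 each, log2). The first 2 were not called (adjusted p = 1 for both). The 120 min difference was called (adjusted p = 0.0052), where 0.036% of probe sets were called, and of the 19460 PTGS2 had the smallest p. Without the second si-miR-20a array at 0 min it was 1.39 (adjusted p = 0.056), and with only the arrays of those 4 groups the adjusted p was 0.74. Measured from 60 min instead of 0 min, a contrast chosen after seeing the data that does not use the 0 min arrays, the response at 120 min exceeded that of control by 0.78 ± 0.17 and was not called (adjusted p = 0.48).

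Tested over all 3 EGF times at once with a moderated F, the PTGS2 response differed between si-miR-20a and control at adjusted p = 0.042. It was 1 of 3 probe sets called (0.0154%), and no other member was. This call was lost in 14 of the 16 fits that left out 1 array of these transfections (adjusted p 0.053 to 0.22 in those 14), and held without the first si-miR-20a array at 0 or at 120 min. It was also lost with a fit to only these transfections (0.15), so it stands close to the threshold. The PTGS2 response in si-miR-671 cells exceeded that in control cells by 0.62, 0.31 and 0.79 at 30, 60 and 120 min, and the F test gave adjusted p = 0.26. That of PTGER4 exceeded it by 0.60, 0.09 and 0.76, with adjusted p = 0.25. For si-miR-20a against si-miR-671 the F test gave adjusted p = 0.13 for PTGS2 and 0.11 for PTGER4, so the 2 transfections were not shown to differ in either response.

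**Figure D3:**
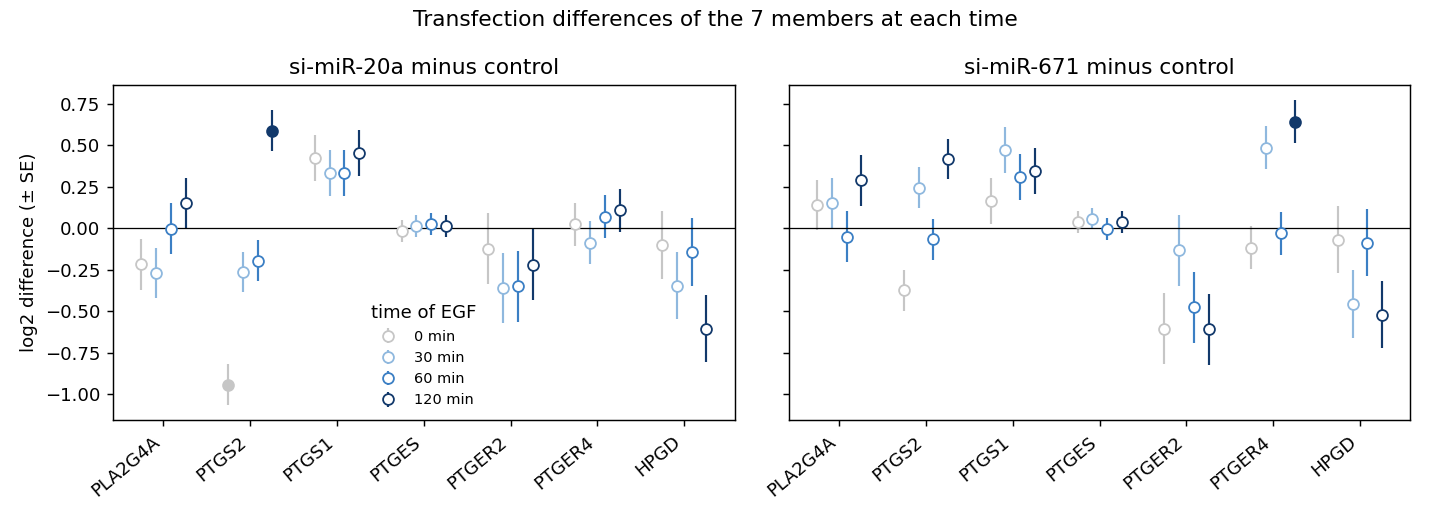
Log2 difference (± SE) of the 7 members between si-miR-20a and control (left) and between si-miR-671 and control (right) at 0, 30, 60 and 120 min of EGF. Filled points are called at an adjusted p under 0.05. PTGS2 is called at 0 min (-0.94) and 120 min (0.59) in si-miR-20a cells, and PTGER4 at 120 min (0.64) in si-miR-671 cells.

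Averaged over the 4 times, si-miR-20a cells had higher PTGS1 and lower HPGD and PTGS2 than control cells, 3 of the 7 members, where 24.5% of all probe sets were called. The PTGS1 arrays had a lowest, median and highest level of 6.87, 7.04 and 7.39 in si-miR-20a cells, against 6.51, 6.71 and 6.91 in control cells. Only 1 si-miR-20a array was below the highest control array, and at each single time the si-miR-20a arrays were all above the control arrays. PTGS1 was higher by 0.39 ± 0.07 (adjusted p = 0.00077), in 4 of 4 times (exact stratified permutation p = 0.0015, the smallest that 1296 arrangements can give). HPGD had a lowest, median and highest level of 5.62, 5.92 and 6.03 in si-miR-20a cells, against 5.87, 6.18 and 6.68 in control cells, and the ranges overlapped. It was lower by 0.30 ± 0.10 (adjusted p = 0.045, exact stratified permutation p = 0.0093), and the call was lost without any one of 13 of the 16 arrays (adjusted p 0.054 to 0.11), all but the first control array at 60 or 120 min and the second si-miR-20a array at 120 min. PTGS2, with its differences of both signs, was lower by 0.20 ± 0.06 on average (adjusted p = 0.026, exact stratified permutation p = 0.25), and this call was lost (adjusted p 0.051 to 0.069) without any one of 7 arrays: the second control array at 0 or 30 min, the first control array at 60 or 120 min, the second si-miR-20a array at 0 min, or the first at 60 or 120 min. PTGER4 differed by 0.03 ± 0.06 (adjusted p = 0.8) and PTGES by 0.01, and neither was called. PTGER2 was lower by 0.26, in 4 of 4 times, and was not called (exact stratified permutation p = 0.025).

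Averaged over the 4 times, si-miR-671 cells had higher PTGS1 and PTGER4 and lower PTGER2 than control cells, also 3 of the 7 members, where 14.5% of all probe sets were called. Both transfections were compared with the same control arrays. HPGD was lower in si-miR-671 cells too, by 0.28 in 4 of 4 times, and was not called (exact stratified permutation p = 0.026). Directly, si-miR-20a minus si-miR-671 was -0.02 for HPGD and 0.19 for PTGER2 (exact stratified permutation p = 0.87 and 0.16). Neither was called, so these 2 shifts were not shown to differ between the oligonucleotides. PTGS1 in si-miR-671 cells had a lowest, median and highest level of 6.66, 7.09 and 7.20, against 6.51, 6.71 and 6.91 in control cells, and was higher by 0.32 ± 0.07 (adjusted p = 0.0049, 4 of 4 times, exact stratified permutation p = 0.0031). PTGER2, the EP2 receptor, had 4.21, 4.50 and 5.04, against 4.75, 4.94 and 5.35 in control cells, and was lower by 0.45 ± 0.11 (adjusted p = 0.0091, 4 of 4 times, exact stratified permutation p = 0.0046). PTGER4, the other cAMP-raising PGE2 receptor, was higher by 0.25 ± 0.06 (adjusted p = 0.018, 2 of 4 times, exact stratified permutation p = 0.052). The PTGER4 difference was largest at 120 min, 7.45 and 7.73 in si-miR-671 cells against 7.07 and 6.82 in control cells, or 0.64 ± 0.13 (adjusted p = 0.0084, with 5.58% of probe sets called). That call was lost without the second si-miR-671 array (0.50, adjusted p = 0.096) or the second control array (0.52, adjusted p = 0.081) of that time. Without the late si-miR-671 arrays none of the 3 averages was called: PTGS1 was 0.32 (adjusted p = 0.061), PTGER2 -0.37 (adjusted p = 0.33) and PTGER4 0.19 (adjusted p = 0.43).

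Between the 2 transfections themselves, PTGS2 was the single member called, lower in si-miR-20a cells by 0.26 ± 0.06 (adjusted p = 0.027, exact stratified permutation p = 0.039), where 4.54% of probe sets were called. This was lost with only the arrays compared (adjusted p = 0.1), with all probe sets in the adjustment (adjusted p = 0.051) or without any one of 9 arrays (adjusted p 0.051 to 0.074). These were the second si-miR-20a array at 0 min, either at 30 or 60 min, and the second si-miR-671 array at 0 or 120 min or the first at 30 or 60 min. Over the 0 and 30 min arrays alone, PTGS2 was lower in si-miR-20a cells by 0.54 ± 0.09 (adjusted p = 0.0028) and PLA2G4A by 0.39 ± 0.11 (adjusted p = 0.041), with 7.51% called. At these times the PLA2G4A arrays read 7.28, 6.95, 7.02 and 7.07 in si-miR-20a cells, against 7.59, 7.35, 7.61 and 7.33 in si-miR-671 cells, with no overlap. The PTGS2 and PLA2G4A calls over 0 and 30 min were lost with only the arrays compared (adjusted p = 0.094 and 0.16), and PLA2G4A was lost with all probe sets in the adjustment (adjusted p = 0.064). The PLA2G4A call was also lost without any one of 6 of these 8 arrays (adjusted p 0.055 to 0.19), all but the first si-miR-20a array at 0 min and the second si-miR-671 array at 30 min. PTGER4 was lower in si-miR-20a cells by 0.57 ± 0.13 at 30 min (adjusted p = 0.043) and by 0.53 ± 0.13 at 120 min (adjusted p = 0.047), where 1.46% and 2.15% were called. With all probe sets in the adjustment neither was called (adjusted p = 0.076 and 0.077), nor with only the arrays compared (adjusted p = 0.35 and 0.57). The 30 min call was lost without any one of its 4 arrays (adjusted p 0.1 to 0.27), and the 120 min call without any one of its 4 except the first si-miR-671 array (adjusted p 0.11 to 0.33).

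The genes whose 12 group means followed those of PTGS2 most closely, by Pearson r and among 18416 other genes, were EGR3 (r = 0.976), PPP1R3B (0.975), DUSP5 (0.966), NR4A2 (0.965) and FOSB (0.964). EGR3, NR4A2 and FOSB are transcription factors of the early response, DUSP5 is a phosphatase of ERK, and PPP1R3B is a regulatory subunit of protein phosphatase 1. PTGER4 came next, at rank 6 (0.962), while HPGD ranked 3198 (0.292), PTGER2 8969, PLA2G4A 8806, PTGS1 15771 (-0.296) and PTGES 18143 (-0.567). Over the groups other than late si-miR-671, the r of the first 5 lay between 0.962 and 0.983, and that of PTGER4 was 0.959. These values describe shared time courses over groups from the same arrays. Over 0, 30, 60 and 120 min, EGR3 averaged 4.45, 8.45, 9.38 and 8.27, and FOSB averaged 3.36, 9.01, 9.09 and 8.10. Both therefore also had their highest average at 60 min and stayed above 0 min at 120 min. For FOSB the 30 and 60 min averages (9.01 and 9.09) were close.

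**Figure D4:**
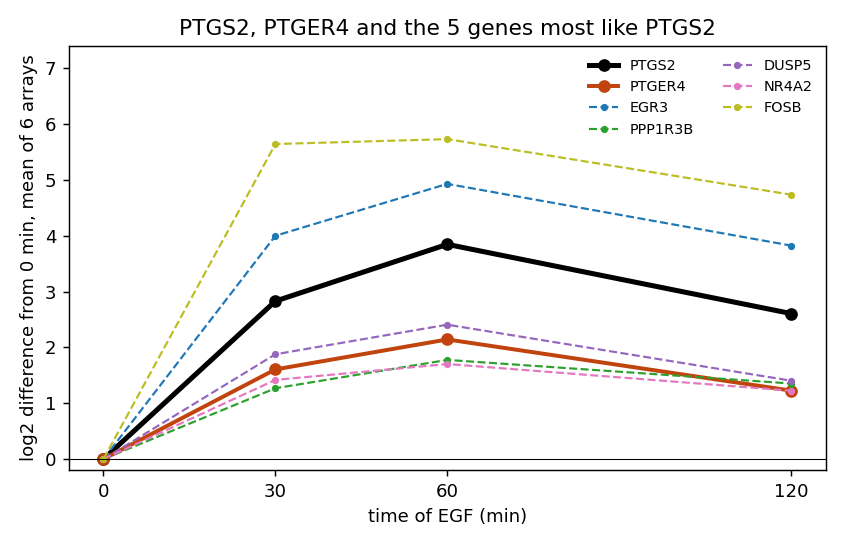
Log2 difference from 0 min, as the mean of the 6 arrays at each time (averaged over si-miR-20a, si-miR-671 and control), against minutes of EGF. Solid lines are PTGS2 and PTGER4, dashed lines the 5 genes with the highest Pearson r to PTGS2 over 12 group means. All 7 have their highest mean at 60 min, FOSB close to its 30 min mean, and they differ in height.

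Around these members, 65 of 72 listed genes of the pathway and of PTGS2 control were measured. At 30 min of EGF 4 rose and 0 fell (6.15%, beside 0.766% of all probe sets). At 60 min 5 rose and 0 fell (7.69%, beside 2.66%). At 120 min 6 rose and 5 fell, so 16.9% were called at 120 min beside 13.4% of all probe sets. When the late si-miR-671 arrays were left out, 5 rose and 0 fell at 60 min (7.69%, beside 1.8%), and 5 rose and 2 fell at 120 min (10.8%, beside 8.44%). The median difference of the 65 at 120 min was 0.01, and that of all probe sets was 0.01. None of the 13 other phospholipases A2, the 5 genes of prostaglandin transport and reduction or the 10 lipoxygenase and leukotriene genes was called at any EGF time. The 9 measured other prostanoid synthases and reductases had 1 call at 120 min, the carbonyl reductase CBR1 (fell by 0.15, adjusted p = 0.038). The 7 other prostanoid receptors had 1, the PGF2-alpha receptor PTGFR (fell by 0.39 ± 0.12, adjusted p = 0.044). Neither was called without the late si-miR-671 arrays: CBR1 was at -0.18 (adjusted p = 0.07) and PTGFR at -0.01 (adjusted p = 0.98).

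The EGF calls lay mainly among factors known to act on the PTGS2 gene or its mRNA. These lists were chosen with earlier results of these data known, so where the calls gather is no test of PTGS2 control. Of 9 promoter factors, FOS averaged 10.9, 10.0 and 7.59 at 30, 60 and 120 min, against 6.91 at 0 min, and JUN 9.53, 9.78 and 8.86 against 7.63. Both rose at all 3 times. At 120 min CEBPD fell by 0.70 ± 0.10 (adjusted p = 0.00021), NFKB1 rose by 0.29 and USF1 fell by 0.49 ± 0.08 (adjusted p = 0.00051). Of 9 mRNA binding proteins, ZFP36, which speeds decay of mRNAs with AU-rich elements, averaged 9.14, 8.75 and 7.12 at 30, 60 and 120 min, against 6.85 at 0 min, and rose at each time. Its relatives were also higher at 120 min: ZFP36L2 averaged 9.88 at 120 min and 8.81 at 0 min, a rise of 1.08 ± 0.05 (adjusted p = 1.3e-09), and ZFP36L1 rose by 0.49. Without the late si-miR-671 arrays, the 60 min rises were 2.04 for ZFP36, 0.42 for ZFP36L1 and 0.35 for ZFP36L2, all called. TIA1, a translational repressor, fell by 0.24 at 120 min (adjusted p = 0.024). The 120 min differences of TIA1 (-0.24, adjusted p = 0.1) and ZFP36 (0.25, adjusted p = 0.14) were not called without the late si-miR-671 arrays. NFKB1, USF1 and ZFP36 lie outside the rule for named genes and were chosen after their values were seen.

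Against control, averaged over times, 4 of the 65 rose and 10 fell in si-miR-20a cells (21.5%, beside 24.5% of all probe sets), and 2 rose and 5 fell in si-miR-671 cells (10.8%, beside 14.5%). These shares were below the background. PTGFR averaged 5.23 in si-miR-20a cells and 6.07 in control cells, a fall of 0.84 ± 0.10 (adjusted p = 2.9e-05). The C/EBP factors were lower in si-miR-20a cells: CEBPB fell by 0.58 ± 0.07 (adjusted p = 4.3e-05) and CEBPD fell by 0.59 ± 0.09 (adjusted p = 0.00015). Whether this bears on the PTGS2 level was not tested. AKR1C3, a prostaglandin F synthase, fell by 0.38 ± 0.04 (adjusted p = 4.9e-06), ACSL4, which activates arachidonic acid for return to membranes, fell by 0.24, and the RNA binding protein RBM3 fell by 0.22. In si-miR-671 cells PTGFR averaged 5.04, a fall of 1.03 ± 0.10 from the same control arrays (adjusted p = 7.1e-06). There CEBPB fell by 0.42, CEBPD fell by 0.37, ACSL4 fell by 0.27 and AKR1C3 fell by 0.20, while PTGES2, another PGE2 synthase, rose by 0.22 (adjusted p = 0.035). The lipoxygenase ALOX15B was higher in both, by 0.23 in si-miR-20a cells (adjusted p = 0.009) and by 0.24 in si-miR-671 cells (adjusted p = 0.013). Over the 0 and 30 min arrays alone, 7 of the 65 were called in si-miR-20a cells (10.8%, beside 12% of all probe sets). In si-miR-671 cells 0 were called, beside 2.81% of all probe sets. There PTGFR was at -0.49 (adjusted p = 0.1), CEBPD at -0.26 (adjusted p = 0.39) and CEBPB at -0.21 (adjusted p = 0.42).

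**Figure D5:**
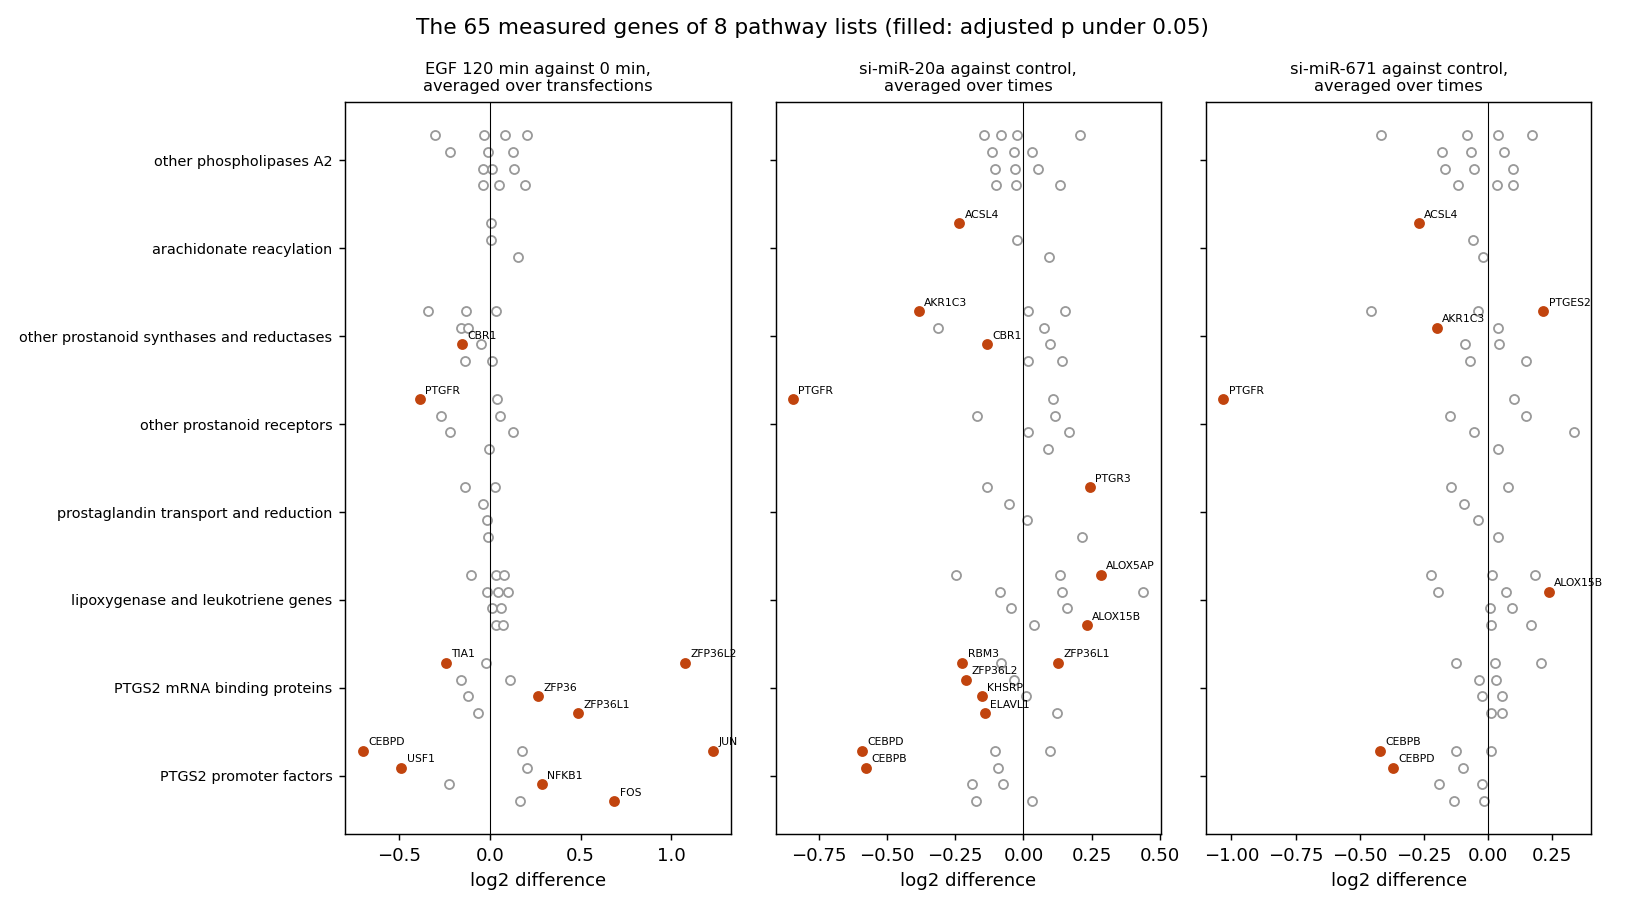
Log2 differences of the 65 measured genes of 8 pathway lists at 120 min of EGF against 0 min (left), in si-miR-20a against control (middle) and in si-miR-671 against control (right). Each circle is 1 gene, filled and named where called at an adjusted p under 0.05. The EGF calls gather in the lists of mRNA binding proteins and promoter factors, which were chosen with earlier results of these data known. PTGFR is the lowest point in both transfections.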

How the data were processed

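RNA of 24 MCF10A samples was measured on Affymetrix Human Gene 1.0 ST arrays, 1 array a sample. The authors deposited log2 values per probe set, and per the submitters' processing notes Affymetrix Expression Console was used; summarisation, normalization and genome build are not given in the sources used here. No filter was applied. Of 33297 probe sets, 19460 had 1 gene symbol, 1754 had several and 12083 were not listed in the probe table. Groups came from the labels. A cell-means model over 12 groups was fitted with limma 3.58.1 in R 4.3.3 (lmFit, eBayes, 12 residual degrees of freedom), with no replicate block and with Benjamini-Hochberg adjustment over the 19460 probe sets. The steps were tested on simulated data. Single members also had two-sided exact permutation tests stratified by transfection or time, 42 in all, without adjustment.

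Members and lists were chosen with earlier results of these data known. All 7 members are named. Of each list up to 4 genes with the smallest adjusted p among those called at 120 min of EGF or in a transfection average could be named, and likeness to PTGS2 names the 5 highest Pearson r. The number of arrays, 2 per group, limits the precision. Other normalizations, filters, variance models, fits and left-out arrays were tried; leaving the late si-miR-671 arrays out of the pathway list counts was added after seeing the data. Sequences came from RefSeq tables (GRCh38.p14), which held all 7 members. Replicate arrays correlated at 0.973 to 0.992. The deviations of same-numbered arrays correlated from -0.573 to 0.55 between groups, with a median of 0.063.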

Additional observations from a re-analysis of the deposited data

Results flagged for a closer look

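The EGF response of PTGS2 differed between si-miR-20a and control cells by the moderated F test over 30, 60 and 120 min (adjusted p = 0.042), which is a difference in the same contrast between 2 transfections. The response was larger in si-miR-20a cells by 0.68, 0.75 and 1.53 on the log2 scale at 30, 60 and 120 min. Its 2 ends lay at 0 min, where PTGS2 averaged 5.43 in si-miR-20a cells and 6.37 in control cells, and at 120 min, where it averaged 8.79 in si-miR-20a cells and 8.20 in control cells. The PTGS2 arrays of si-miR-671 cells also lay below control at 0 min and above it at 120 min, and these differences were not called in the main fit. Groups of 2 arrays were too small to look for single outlying arrays.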

How the results depend on the processing

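The counts of members called for EGF averaged over transfections (2 at each time) did not move under any alternative tried, and for EGF in control cells they moved only to 1 at 30 min and 1 at 120 min with only the arrays of the groups compared. For si-miR-671 against control the count was 0 without the late si-miR-671 arrays (60 and 120 min). For si-miR-20a against si-miR-671 it was 0 with all probe sets tested, 2 with a mean of at least 6 over 24 arrays, and 0 with only the arrays compared. The F call of PTGS2 for si-miR-20a went to 0 members with all probe sets (adjusted p = 0.092), array weights (0.16), the replicate block (0.068), without the late si-miR-671 arrays (0.11) and with only the arrays compared (0.15). The cause of these changes was not tested, except that the last 2 use fewer arrays. Leaving out 1 array at a time gave 1 to 3 members for si-miR-20a against control, 3 to 4 for si-miR-671 against control, 0 to 2 for si-miR-20a against si-miR-671, 0 to 1 for the F test of si-miR-20a, 0 for that of si-miR-671, and 2 for EGF at each time, averaged and in control. No called value changed sign.

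Over all probe sets, only the arrays compared gave 10, 25 and 39 calls in control cells at 30, 60 and 120 min, against 65, 154 and 576 in the full fit, 1390 against 2607 for EGF 120 min averaged and 370 against 884 for si-miR-20a against si-miR-671. Array weights gave 417 at 60 min in control cells. Without the late si-miR-671 arrays, EGF 120 min averaged had 1642 calls and si-miR-671 against control 435, against 2820. The F tests had 3 calls for si-miR-20a (0 to 12 under other settings) and 10 for si-miR-671 (0 to 92).

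Same-numbered arrays correlated in their deviations from -0.573 to 0.55 (median 0.063 over 66 pairs of groups, 30 of them over 0.1), so the numbers were not taken as pairs; the replicate block changed no other call of a member. HPGD in si-miR-20a against control was lost with all probe sets (adjusted p = 0.065), array weights (0.058) and without the late si-miR-671 arrays (0.067). Each member had 1 probe set, so the mean of several probe sets could not be tried. PTGER2, with a mean of 4.76, was removed by the filter at 6 and was not tested there. Signal over background is not in the deposited values, and PTGER2 had the largest standard error of the 7.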
